A study of Mus musculus with 48 samples.

Results

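The genes described here are 10 components of MHC class I antigen presentation, followed through mouse macrophages treated with the compound AP-3-84. They were chosen by symbol: the heavy chains H2-K1 and H2-D1, the light chain B2m, the peptide transporter subunits Tap1 and Tap2, the loading factor Tapbp, the immunoproteasome subunits Psmb8, Psmb9 and Psmb10, and the transactivator Nlrc5. Of 51789 gene IDs in the count table, 10 matched these symbols, and 10 of 10 passed the filter on low counts in both fits described below. The matching by symbol used no measured value, but the members were chosen with earlier results of these data known.

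The study gave 48 libraries in 16 groups of 3, made with a 3′ mRNA kit (QuantSeq FWD), and each group received either 10 µM AP-3-84 or DMSO vehicle for 4 h. Thioglycollate macrophages (thio) were F4/80-sorted peritoneal cells of wild-type C57BL/6 mice, taken 4 days after 1 ml of 3% thioglycollate. Ascites macrophages were F4/80-sorted cells of mice carrying ID8 ovarian tumours for 45 days, and the labels give these mice as C57BL/6 with the genotype B6(Cg)-Tyrc-2J/J. Bone marrow-derived macrophages were grown for 6 days with 10 ng/mL M-CSF and left as M0, or polarized for 24 h. M1 cells received IFN-γ at 50 ng/mL together with LPS at 100 ng/mL, and M2 cells IL-4 and IL-13, each at 10 ng/mL. They came from wild-type (WT) or p53 knockout (KO) B6 mice according to titles and descriptions, although the genotype field calls all of them wild-type. How the p53 gene was deleted is not given. Nothing in the labels says that replicates were separate animals or cultures, so p-values measure the spread between these samples, which may be technical.

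MHC class I molecules show peptides from a cell's own proteins to CD8 T cells. The proteasome cuts the proteins, the TAP transporter carries the peptides into the endoplasmic reticulum, and tapasin (Tapbp) holds an empty heavy chain with beta-2 microglobulin (B2m) against TAP until a peptide binds. Interferon-γ is known to raise these genes, in part through IRF1 and NLRC5, and to replace the constitutive catalytic subunits Psmb6, Psmb7 and Psmb5 by the immunoproteasome subunits Psmb9, Psmb10 and Psmb8.

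Of the 10 genes, 7 lie on chromosome 17 in the MHC region and its flank (GENCODE M21, GRCm38): Tapbp (33915899 to 33929292), H2-K1 (33996017 to 34000347), Psmb9 (34181987 to 34187764), Tap1 (34187553 to 34197225), Psmb8 (34197721 to 34201454), Tap2 (34203527 to 34216321) and H2-D1 (35262730 to 35267499). Nlrc5 (94434356 to 94527272) and Psmb10 (105935735 to 105938444) lie on chromosome 8, and B2m (122147686 to 122153083) on chromosome 2. RefSeq promoter windows (GRCm38.p6, 250 bases before the start site) were found for 8 of the 10 genes, all but Tap2 and Nlrc5. They were searched on both strands for the interferon regulatory factor core AANNGAAA, the GAS element TTCNNNGAA and the NF-kB consensus, which occur in 21.3%, 7.02% and 7.25% of all 32851 windows. The IRF and NF-kB patterns were both found in H2-K1, H2-D1 and B2m, and the GAS pattern was found in Psmb8. All 10 genes are compared below in interferon-treated cells, and a stretch is shown only for the genes with a match. The matches are in capitals and each stretch is read on the gene's own strand:
H2-K1 (chr17:34000430-34000458, minus strand): GGGGATTCCCCatctccacagTTTCACTT
H2-D1 (chr17:35262923-35262951, plus strand): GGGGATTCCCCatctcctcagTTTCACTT
B2m (chr2:122147550-122147570, plus strand): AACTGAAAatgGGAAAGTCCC
Psmb8 (chr17:34198088-34198116, plus strand): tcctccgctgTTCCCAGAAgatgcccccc

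The H2-K1 and H2-D1 stretches are identical at 28 of 29 bases, with the NF-kB pattern upstream of the IRF core in both. In B2m the order is the opposite. No match was found in the windows of Tap1, Psmb9, Tapbp and Psmb10, which says only that these letters are not there. Psmb9 and Tap1 start head to head, with 225 bases between their RefSeq start sites (chr17:34187331-34187555). In GENCODE exons of the 2 genes overlap on opposite strands, and Tap2, Psmb8, Tapbp and Nlrc5 also share exon sequence with a gene on the opposite strand. Whether counting used strand is not stated, so reads that fall in such overlaps cannot be told apart. The Psmb9 and Tap1 overlap lies at the 5′ end of both genes, whereas these libraries hold 3′ tags. Of the 75-base words in the last 500 bases of transcripts, 4.31% in H2-K1 and 10.1% in H2-D1 also occur in another gene, H2-Q genes among them, so counts of these 2 genes are less certain. In Tapbp 0.596% do, shared with Zbtb22, whose exons overlap those of Tapbp on the same strand. H2-K1 and H2-D1 together held 87.3% to 98.7% of the counts over 14 class I heavy-chain genes.

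Depth was 15532373 to 19417581 counts in the 12 peritoneal libraries and 3081707 to 4645148 in the 36 bone marrow-derived ones, and both sets were scaled and tested apart. Levels are given as CPM, the count of a gene scaled to the effective size of its library, and compared only for the same gene. All 7 macrophage markers were detected in every library, but their sum was not even across groups. It was 32252, 37115 and 38949.8 CPM in KO M0 vehicle, 16073, 25149.6 and 16601 in KO M1 vehicle and 18413, 9340.0 and 5894 in KO M2 vehicle. The 5 neutrophil markers summed to 518, 641 and 524, 1602, 945 and 2354 and 315, 566 and 3043 CPM in the same groups, so the KO polarized groups held less of the first list and KO M2 vehicle replicate 3 was at the extreme of both. In WT M0, M1 and M2 vehicle the macrophage sums were at least 24908 CPM, and the neutrophil sum in WT M2 vehicle was 3731, 541 and 411 CPM. Trp53 stood at 4.79 to 13.2 CPM in WT and 2.7 to 9.11 CPM in KO libraries. In M0 vehicle it was lower in KO (3.14, 3.39 and 6.49 CPM) than in WT (13.2, 10.8 and 9.2 CPM) without overlap, but since the deleted part is not given, these 3′ tags do not settle the genotype of a library. The KO M0 groups stood apart in Marco, a scavenger receptor chosen after its values were seen. Its level was 14.3 to 17.5 CPM in KO M0 vehicle, 1171 to 2070.3 in WT M0 vehicle, and 2896, 2067 and 473 in KO M0 with AP-3-84. In WT M2 vehicle, replicate 1 stood apart in the same gene (1089, 130.3 and 83.6 CPM). Results are given with and without single libraries where a call depends on them, but the 3 KO M0 vehicle libraries are the only controls of their group and their part in the results that use them was not tested. Whether these libraries carry the right label was not tested either, and every KO M0, KO polarization and M0 genotype value rests on it.

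The ascites macrophages carried more class I transcript than the thioglycollate macrophages for 9 of the 10 genes, Tap2 being the exception (edgeR adjusted p under 0.05). Of all 16955 genes tested, 20.3% were called higher in ascites. The largest ratios were in Tap1 and Nlrc5 and the smallest was in H2-D1. Tap1 stood at 151, 156 and 148 CPM in ascites and at 24.6, 24.1 and 25.2 CPM in thio vehicle libraries. This was a 6.16-fold difference (2.62 ± 0.073 SE on the log2 scale, edgeR adjusted p 2.14e-14). Nlrc5, the transactivator that binds class I promoters, stood at 24.7, 25.3 and 27.7 against 5.68, 4.37 and 5.64 CPM (2.31 ± 0.14 SE on the log2 scale, edgeR adjusted p 5.77e-10). For both genes every ascites library lay above every thio library.

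Both classical heavy chains were higher in ascites. H2-K1 stood at 2449, 2529.6 and 2602 CPM in ascites and 692, 622 and 652 CPM in thio, 3.86-fold higher (1.95 ± 0.07 SE on the log2 scale, edgeR adjusted p 5.23e-13). H2-D1 stood at 3342, 3417 and 3432 and 2736, 2559 and 2814 CPM, 1.26-fold higher (0.33 ± 0.051 SE on the log2 scale, edgeR adjusted p 5.89e-05). The difference between these 2 ratios was not tested. B2m, which pairs with both, was 2.75-fold higher (6152, 6846 and 7096 against 2519, 2352 and 2436 CPM, edgeR adjusted p 1.9e-09). Summed over 14 heavy-chain genes the log2 fold change was 0.91 (edgeR adjusted p 1.52e-10).

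The processing genes were higher in ascites by similar ratios. The ratio was 3.56-fold for Psmb8 (243 ± 7.68 against 68.3 ± 5.05 CPM, SD, n = 3; edgeR adjusted p 2.56e-12). It was 3.42-fold for Psmb9 (167 ± 16.9 against 48.7 ± 3.91 CPM, edgeR adjusted p 1.8e-10). Psmb10 was 3.34-fold higher (156 ± 9.83 against 46.8 ± 5.34 CPM, edgeR adjusted p 3.46e-11). The loading factor Tapbp was 2.96-fold higher (990.2 ± 70.0 against 335 ± 22.4 CPM, edgeR adjusted p 4.34e-10). Tap2, the partner of Tap1, was at 31.7, 37.8 and 19.9 CPM in ascites and 25.5, 17.8 and 24.6 CPM in thio, and these ranges overlapped (0.40 ± 0.28 SE on the log2 scale, edgeR adjusted p 0.341). The call was thus made for 1 of the 2 transporter subunits.

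**Figure D1:**
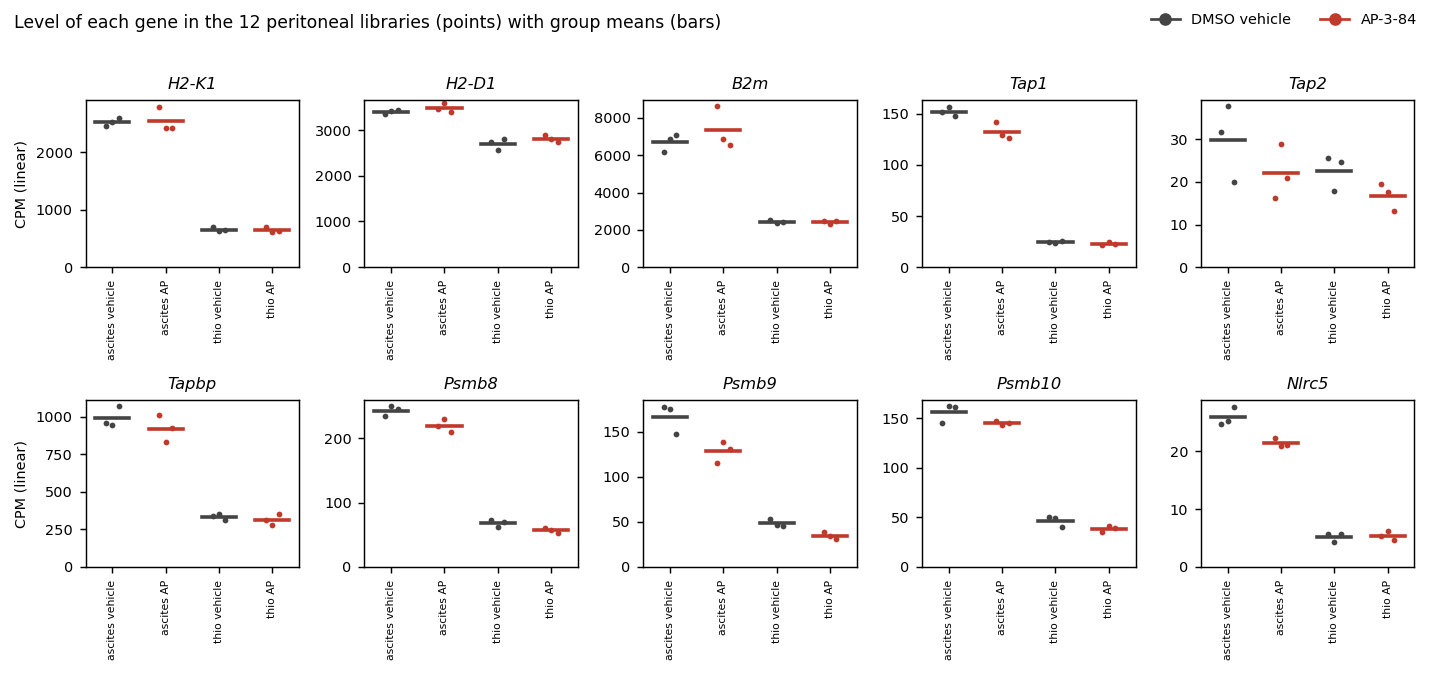
Level of each of the 10 genes in the 12 peritoneal libraries, in CPM on linear axes that start at 0; points are libraries, bars are group means of 3, grey is DMSO vehicle and red is AP-3-84. In vehicle, 9 of the 10 genes have every ascites library above every thio library, and Tap2 overlaps. The share of all genes that separate in this way was not counted.

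Other genes of the pathway moved in the same comparison. Of the 11 other class I heavy chains tested, 8 were higher and none lower, beside 20.3% of all genes higher. The largest rises were those of H2-Q7 (log2 fold change 4.22) and H2-Q6 (3.78). All 3 proteasome activator and assembly genes were higher, with Psme1 at 1.80 and Psme2 at 1.57. Of 16 interferon signalling genes, 11 were higher and 3 lower, beside 20.3% of all genes higher and 13.4% lower. The largest rise was that of Socs1, an inhibitor of JAK signalling (4.11), and the largest falls were Rfxap, a class II and class I promoter factor (-0.44), and Jak1 (-0.30). The median log2 fold change was 1.76 over the 10 members, 1.28 over the other heavy chains, 0.40 over the interferon list and 0.05 over all genes. The ovarian epithelial, mesothelial or ID8 marker list summed to 185 to 219 CPM in ascites vehicle and 2.98 to 4.66 CPM in thio vehicle, and its part in these differences was not tested. Tumour, irritant and genotype label differ together between the populations and cannot be told apart, and in bulk libraries fewer expressing cells and less RNA per cell cannot be told apart either.

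Polarization with LPS and IFN-γ raised 9 of the 10 genes in WT cells, all but Tap2, where 8.01% of all 11779 genes were called higher. In KO cells it raised 7, and 22.8% of all genes were higher. The levels of H2-K1 were 360.3, 521 and 549 CPM in WT M0 and 1829.5, 1716 and 1905 CPM in WT M1, 3.81-fold higher (1.93 ± 0.18 SE on the log2 scale, edgeR adjusted p 1.63e-08). In KO cells H2-K1 was at 582, 542 and 489 CPM in M0 and 1849, 1339 and 1239.9 CPM in M1 (1.46 ± 0.18 SE on the log2 scale, edgeR adjusted p 2.03e-07). No M0 library reached the level of an M1 library in either genotype. H2-D1 rose from 863 ± 77.6 to 2493 ± 58.5 CPM in WT (1.53 on the log2 scale) and from 1434 ± 173 to 2262 ± 198 CPM in KO (0.66).

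B2m rose from 1334, 1394 and 1388 to 4916, 4734 and 5421 CPM in WT (1.87 ± 0.21 SE on the log2 scale, edgeR adjusted p 1.55e-07) and by a log2 fold change of 1.10 in KO (edgeR adjusted p 5.76e-05). Tap1 rose by 1.73 in WT and 1.71 in KO on the log2 scale (edgeR adjusted p 1.8e-05 and 3.25e-06), and the difference between genotypes was -0.01 (SE 0.35). Psmb8 rose from 126, 130.2 and 99.9 to 291, 299 and 284 CPM in WT (1.29 ± 0.19 SE on the log2 scale, edgeR adjusted p 1.71e-05) and from 76.3, 80.3 and 51.7 to 143, 216 and 178 CPM in KO (1.37 ± 0.19 SE on the log2 scale, edgeR adjusted p 1.49e-06). Psmb9 rose by 1.19 and 1.30 on the log2 scale (edgeR adjusted p 0.000121 and 5.62e-06). These 4 genes passed the test in both genotypes.

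Nlrc5 stood at 4.71, 5.74 and 6.39 CPM in WT M0 and 14.6, 11.7 and 16.4 CPM in WT M1 (1.34 ± 0.33 SE on the log2 scale, edgeR adjusted p 0.00505), and at 6.55, 11.4 and 9.47 and 16.5, 13.9 and 15.6 CPM in KO, where it missed the threshold (edgeR adjusted p 0.0523; called by DESeq2 at 0.0464, from 0.039 to 0.202 over all alternatives). Nlrc5 and Tap2 had the lowest counts of the 10 genes, which limits their precision. Tap2 was at 20.4, 8.31 and 4.06 CPM in KO M0 and 9.89, 39.5 and 22.5 CPM in KO M1, ranges that overlapped (1.12 ± 0.51 SE on the log2 scale, edgeR adjusted p 0.0766; called by DESeq2 at 0.041, by edgeR with no filter and without KO M0 or KO M1 vehicle replicate 1, from 0.000228 to 0.414 over all alternatives). Psmb10 rose in WT (71.8, 66 and 68 to 114, 127 and 148 CPM, 0.92 ± 0.17 SE on the log2 scale, edgeR adjusted p 0.000238), while in KO it was at 103, 105 and 109 CPM in M0 and 123, 87.8 and 124 CPM in M1 (0.08 ± 0.16 SE on the log2 scale, edgeR adjusted p 0.736). Tapbp rose by 1.63 in WT (edgeR adjusted p 5.14e-05) and by 0.64 in KO. The KO call was lost without KO M0 vehicle replicates 1 and 2 in turn and without KO M1 vehicle replicate 1 (edgeR adjusted p 0.123, 0.103 and 0.37, from 0.00189 to 0.37 over all alternatives), and under the replicate block (0.0544).

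The difference between genotypes in this response was tested directly, and 3 of the 10 genes rose less in KO, beside 9.51% of all genes with a lower response. These were H2-D1 (difference -0.87, SE 0.22, edgeR adjusted p 0.00478), Psmb10 (-0.84, adjusted p 0.00909) and Tapbp (-0.999, adjusted p 0.0422). The Tapbp call was lost without 9 of the 12 libraries in turn (adjusted p from 0.00293 to 0.134 over all alternatives). With total counts as the only scaling, H2-D1 alone remained below the threshold. The M0 levels of H2-D1 and Psmb10 were already higher in KO (below), and the KO M0 vehicle libraries enter both comparisons.

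**Figure D2:**
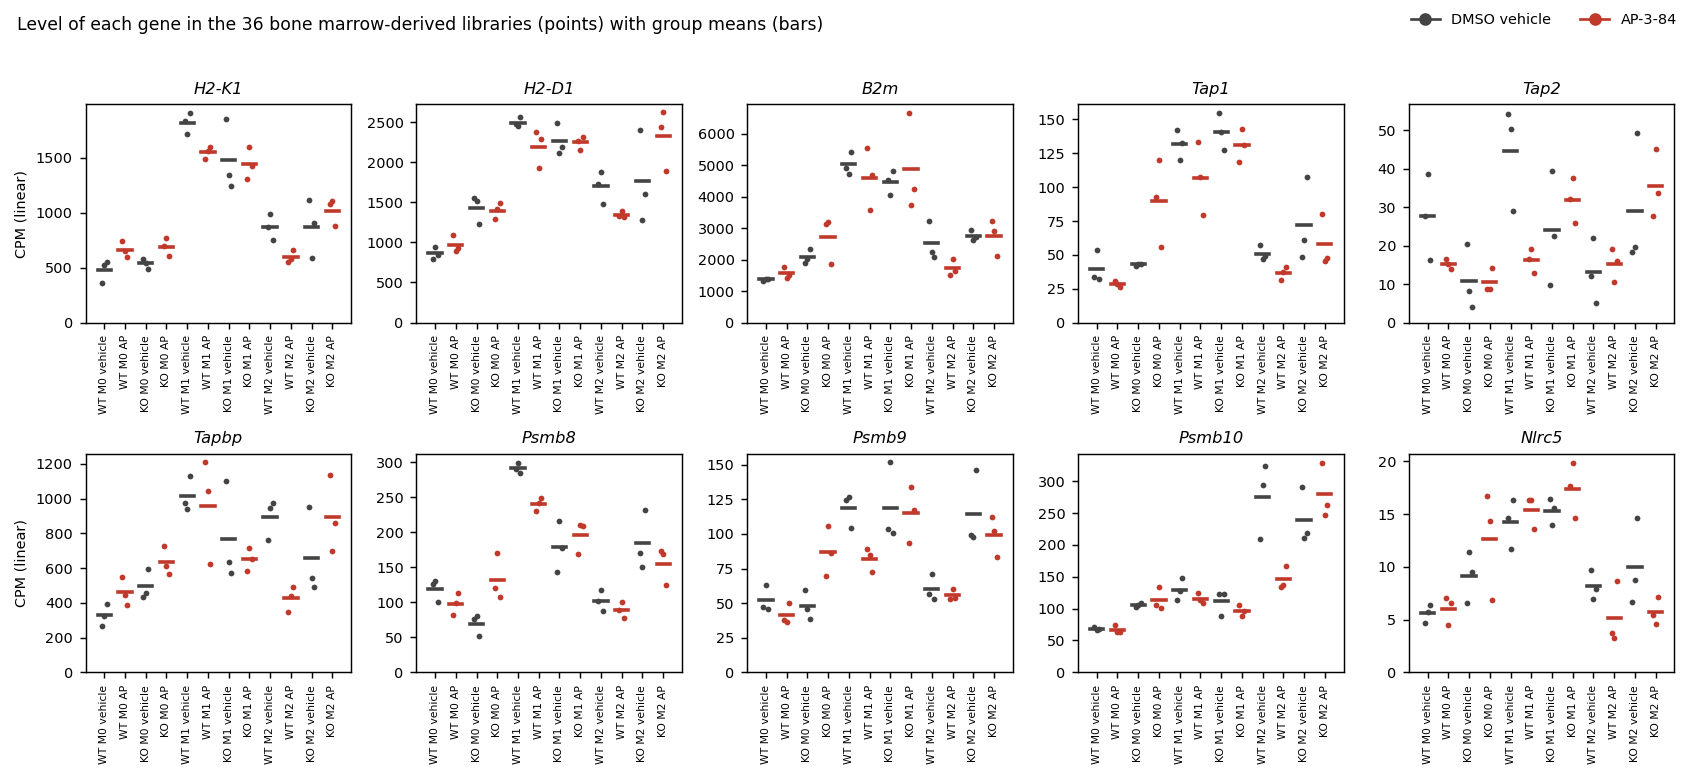
Level of each of the 10 genes in the 36 bone marrow-derived libraries, in CPM on linear axes that start at 0; points are libraries, bars are group means of 3, grey is DMSO vehicle and red is AP-3-84. The M1 vehicle groups lie above the M0 vehicle groups for H2-K1, H2-D1, B2m, Tap1, Psmb8, Psmb9 and Nlrc5 in both genotypes, and Psmb10 is highest in the M2 groups. How many of all genes separate in this way was not counted.

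IL-4 and IL-13 raised 5 of the 10 genes in WT cells, beside 12.7% of all genes, and 6 in KO cells, beside 20.1%. Psmb10 showed the largest rise of the 10 in WT. It stood at 71.8, 66 and 68 CPM in WT M0 and 209.5, 294 and 324 CPM in WT M2, 4.02-fold higher (2.01 ± 0.17 SE on the log2 scale, edgeR adjusted p 2.09e-10). In KO it rose from 103, 105 and 109 to 291, 210.4 and 219 CPM (1.18 ± 0.16 SE on the log2 scale, edgeR adjusted p 1.34e-06). The M2 level of Psmb10 exceeded the M1 level in every vehicle library of both genotypes, a difference that was not tested. Tapbp rose from 269, 322 and 391 to 763, 947 and 975 CPM in WT (1.45 ± 0.25 SE on the log2 scale, edgeR adjusted p 8.81e-05) and was not called in KO (0.42, edgeR adjusted p 0.189).

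The heavy chains rose in WT M2 by 0.86 for H2-K1 and 0.98 for H2-D1 on the log2 scale (edgeR adjusted p 0.000599 and 2.27e-05), and B2m by 0.88 (adjusted p 0.00179). In KO M2, H2-K1 rose by 0.69 (adjusted p 0.0027). Psmb8 and Psmb9 were not called in WT M2 (log2 fold changes -0.21 and 0.21, edgeR adjusted p 0.457 and 0.483) but rose in KO M2. Psmb8 was at 76.3, 80.3 and 51.7 CPM in KO M0 and 170.3, 151 and 232 CPM in KO M2 (1.41 ± 0.19 SE on the log2 scale, edgeR adjusted p 1.26e-06). Psmb9 was at 59.7, 45.6 and 38.7 and 99.2, 97.5 and 146 CPM (1.25 ± 0.20 SE on the log2 scale, edgeR adjusted p 1.42e-05). The KO rises of Tap1 (0.75) and Tap2 (1.40) were not called when some single libraries were left out. Without KO M2 vehicle replicate 3 the adjusted p was 0.299 for Tap1 and 0.279 for Tap2, and both calls were also lost without KO M0 vehicle replicates 2 and 3 in turn, Tap1 also without replicate 1 (adjusted p from 0.00244 to 0.299 and 3.68e-06 to 0.279 over all alternatives).

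The difference of this M2 response between genotypes was called in 6 of the 10 genes, beside 27.1% of all genes. Psmb8 (1.62, SE 0.27, edgeR adjusted p 6.38e-05), Psmb9 (1.04, adjusted p 0.0078) and Tap2 (2.47, adjusted p 0.0125) had a higher response in KO. Tap2 had a lower mean in WT M2 (12.2, 22 and 5.07 CPM) than in WT M0 (27.8, 38.7 and 16.4 CPM), with overlap. This WT difference was not called with the settings used elsewhere. It was called by edgeR with no filter (-1.08 on the log2 scale, adjusted p 0.000809) and without WT M2 vehicle replicate 2 (-1.65, adjusted p 0.0466). Over all alternatives its adjusted p went from 0.000809 to 0.416. H2-D1 (-0.68, adjusted p 0.022), Tapbp (-1.03, adjusted p 0.0297) and Psmb10 (-0.83, adjusted p 0.00841) rose less. The call was lost for Tap2 without KO M2 vehicle replicate 3 (edgeR adjusted p 0.065), and for H2-D1 and Tapbp without 4 and 7 of the libraries in turn (adjusted p from 2.87e-09 to 0.0761, 0.000458 to 0.0924 and 0.000919 to 0.0989 over all alternatives). With only the groups compared in the fit, Tap2 (0.0761) and H2-D1 (0.0924) were lost. H2-D1 was also lost with total counts (0.0515), with no filter (0.052) and with the heavy-chain genes summed (0.064). Without KO M2 vehicle replicate 3, the library with the lowest macrophage and the highest neutrophil marker sum of its group, 3 of the 6 calls remained. The part of these marker shifts in the KO polarization results was not tested.

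Between genotypes, vehicle M0 cells differed in 5 of the 10 genes, beside 33.2% of all genes. H2-D1 was higher in KO (1554, 1514 and 1235 against 797, 948 and 845 CPM, 0.73 ± 0.16 SE on the log2 scale, edgeR adjusted p 0.000619), as were B2m (0.60, edgeR adjusted p 0.0213) and Psmb10 (0.62, adjusted p 0.00421). Psmb8 was lower in KO (76.3, 80.3 and 51.7 against 126, 130.2 and 99.9 CPM, -0.78 ± 0.19 SE on the log2 scale, edgeR adjusted p 0.00253), and so was Tap2 (-1.33, adjusted p 0.0463). The call of Tap2 was lost without 4 of the 6 libraries in turn and that of B2m without 3 of them, and Tap2 also under the replicate block (0.0687), with total counts (0.0604) and with only the 2 groups compared (0.137; adjusted p from 1.15e-05 to 0.211 and 0.000797 to 0.1 over all alternatives), which left 3 of the 5 calls without WT M0 vehicle replicates 1 or 2 or KO M0 vehicle replicate 3. Tapbp was called under the replicate block (0.0482), and under 4 other alternatives, but not with the settings used elsewhere (0.59 ± 0.25 SE on the log2 scale, edgeR adjusted p 0.0671; from 0.00996 to 0.268 over all alternatives). In M1, 1 gene was lower in KO, beside 5.71% of all genes. It was Psmb8 (143, 216 and 178 against 291, 299 and 284 CPM, -0.70 ± 0.19 SE on the log2 scale, edgeR adjusted p 0.0144), and the call was lost without WT replicate 2, KO replicate 1 or KO replicate 3, and with total counts as the only scaling (adjusted p from 0.00742 to 0.109 over all alternatives).

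In M2, Psmb8 and Psmb9 were higher in KO, 2 of 10 beside 1.21% of all genes. Psmb8 stood at 170.3, 151 and 232 CPM in KO and 101, 118 and 88 CPM in WT, with no overlap (0.85 ± 0.19 SE on the log2 scale, edgeR adjusted p 0.0108). Psmb9 stood at 99.2, 97.5 and 146 and 56.8, 70.9 and 53.2 CPM, again with no overlap (0.92 ± 0.20 SE on the log2 scale, edgeR adjusted p 0.00805). Without KO M2 vehicle replicate 3, the highest of its group in both genes and in the neutrophil sum and the lowest in the macrophage sum, neither was called (edgeR adjusted p 0.122 and 0.104), and Psmb8 was also lost without WT M2 vehicle replicate 3 (0.0646). With only the 2 groups compared in the fit, 0 of 10 were called (0.212 and 0.206; adjusted p from 0.000786 to 0.212 and 0.00042 to 0.206 over all alternatives).

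AP-3-84 changed few of these genes. In ascites macrophages 0 of 10 were called, beside 1.79% of all genes, and 3 had an unadjusted p under 0.05, beside 1804 of all 16955 genes. Psmb9 came nearest, at 178, 175 and 147 CPM with vehicle and 115, 138 and 130.2 CPM with AP-3-84 (-0.38 ± 0.096 SE on the log2 scale, edgeR adjusted p 0.0544), and the ranges did not overlap. DESeq2 called it (adjusted p 0.0186), as did edgeR without ascites vehicle replicate 3 (adjusted p 0.0237, from 0.000429 to 0.255 over all alternatives). In thioglycollate macrophages Psmb9 fell, 1 of 10 beside 1.82% of all genes called lower. It stood at 53.2, 47 and 45.9 CPM with vehicle and 38.7, 33.8 and 31.3 CPM with AP-3-84, 1.41-fold lower (-0.49 ± 0.10 SE on the log2 scale, edgeR adjusted p 0.00828). The call was lost without AP-3-84 replicate 3 (edgeR adjusted p 0.0509, from 1.82e-06 to 0.0509 over all alternatives).

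Psmb8 in thio cells was at 72.6, 62.7 and 69.6 CPM with vehicle and 61.3, 57 and 52.3 CPM with AP-3-84, without overlap (-0.26 ± 0.074 SE on the log2 scale, edgeR adjusted p 0.0537). It was called by DESeq2 (adjusted p 0.0489) and without thio vehicle replicate 2 or AP-3-84 replicate 1 (edgeR adjusted p 0.0424 and 0.0341), and Psmb10 without thio vehicle replicate 3 (0.028), with adjusted p from 0.0223 to 0.227 and 0.028 to 0.332 over all alternatives. H2-K1, H2-D1 and B2m had log2 fold changes between -0.02 and 0.13 in the 2 peritoneal populations, and none was called. The response of the 10 genes did not differ detectably between ascites and thio: 0 were called by edgeR and 0 by DESeq2, beside 0.118% of all genes called by edgeR. At an unadjusted edgeR p under 0.05 there were 0 of the 10, beside 1295 of all 16955 genes. For Psmb9 the difference was 0.11 (SE 0.14).

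In WT M0 and WT M1 cells edgeR and DESeq2 each called 0 of 10, beside 0.144% and 0.017% of all genes called by edgeR. At an unadjusted edgeR p under 0.05 there were 1 and 2 of the 10, beside 1107 and 857 of all 11779 genes. In WT M1 the lowest log2 fold change was that of Tap2, at 54.2, 50.3 and 29 CPM with vehicle and 16.7, 19.2 and 12.9 CPM with AP-3-84 (-1.44 ± 0.49 SE on the log2 scale, edgeR adjusted p 0.46). Tap2 was called by edgeR with no filter on low counts (adjusted p 1.77e-05) and with only the 2 groups compared (0.00771), with a range of 1.77e-05 to 1 under the alternatives. The CPM ranges of Tap2 did not overlap, and those of H2-K1, H2-D1, Psmb8 and Psmb9 were also lower without overlap. The share of all genes with separate ranges was not counted. In WT M2, Psmb10 and Tapbp fell, 2 of 10 beside 0.976% of all genes called lower. Psmb10 stood at 209.5, 294 and 324 CPM with vehicle and 135, 137 and 167 CPM with AP-3-84, 1.88-fold lower (-0.91 ± 0.16 SE on the log2 scale, edgeR adjusted p 0.00171). It stayed called in every alternative (edgeR or DESeq2 adjusted p from 1.3e-05 to 0.0495), also without the vehicle replicate 1 that stood apart in Marco and in the neutrophil sum.

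Tapbp stood at 763, 947 and 975 CPM with vehicle and 349, 441 and 489 CPM with AP-3-84, 2.1-fold lower (-1.07 ± 0.25 SE on the log2 scale, edgeR adjusted p 0.0267). This call was lost without vehicle replicates 2 or 3 or AP-3-84 replicates 1 or 2 (adjusted p from 4e-07 to 0.204 over all alternatives). The groups did not overlap for either gene, nor for H2-K1, H2-D1, B2m and Tap1, which were not called. How many of all genes separated in this way was not counted, so these ranges add nothing to the calls. In KO M1 and KO M2 edgeR and DESeq2 each called 0 of 10. In KO M1 none of the 10 had an unadjusted p under 0.05, beside 0% of all genes called by edgeR, 206 genes at an unadjusted p under 0.05 and 0 by DESeq2. In KO M2, 2 of the 10 had an unadjusted p under 0.05, beside 1454 of all 11779 genes, and edgeR called 0.0509% of all genes. H2-D1 was called there without KO M2 vehicle replicate 1 (adjusted p by edgeR 0.00896, with a range of 0.00896 to 0.859 under the alternatives). All 10 genes had overlapping ranges in both populations.

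The fall of Psmb10 and Tapbp in M2 cells differed between genotypes (2 of 10 with a higher response in KO, beside 1.08% of all genes). The difference was 1.13 (SE 0.23, edgeR adjusted p 0.00727) for Psmb10 and 1.51 (SE 0.35, adjusted p 0.0226) for Tapbp. With only the 4 groups compared in the fit, neither was called (0.0845 for both), and Tapbp was lost without 6 of the 12 libraries in turn (adjusted p from 0.00039 to 0.0845 and 3.2e-07 to 0.101 over all alternatives). Without KO M2 vehicle replicate 1, 4 of the 10 were called. In M1 cells 0 of 10 differed between genotypes by edgeR and by DESeq2, beside 0.00849% of all genes called by edgeR. At an unadjusted edgeR p under 0.05 there was 1 of the 10, beside 831 of all 11779 genes.

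Among the 8 populations, members were called higher with AP-3-84 in KO M0 alone. Tap1, Psmb8 and Psmb9 were higher, 3 of 10 beside 12.1% of all genes called higher. Tap1 stood at 41.9, 43.4 and 43.5 CPM with vehicle and 92.5, 119.9 and 56.1 CPM with AP-3-84, 2.08-fold higher (1.06 ± 0.25 SE on the log2 scale, edgeR adjusted p 0.00323). Psmb8 stood at 76.3, 80.3 and 51.7 and 120.0, 170.0 and 107 CPM, 1.91-fold higher (0.93 ± 0.19 SE on the log2 scale, edgeR adjusted p 0.000874). Psmb9 stood at 59.7, 45.6 and 38.7 and 69.7, 106 and 86 CPM, 1.82-fold higher (0.86 ± 0.20 SE on the log2 scale, edgeR adjusted p 0.00274). Every AP-3-84 library lay above every vehicle library for these genes and for H2-K1, which was not called (0.36, edgeR adjusted p 0.149). The share of all genes that separated in this way was not counted.

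AP-3-84 replicate 3 of KO M0 had the lowest value of its group in Tap1, Psmb8, B2m (3122, 3185 and 1850.2 CPM) and Nlrc5 (16.7, 14.3 and 6.88 CPM), and its Marco level was the lowest as well. Leaving out replicates 1 and 2, an alternative chosen after the data were seen, left 1 AP-3-84 library, so only effect sizes are given. The log2 fold changes were then 0.40 for Tap1, 0.64 for Psmb8 and 0.85 for Psmb9. Tap1 lost its call without replicate 2 alone (edgeR adjusted p 0.0557), and Psmb9 with only the 2 groups compared in the fit (0.0522). Psmb8 kept its call in the other alternatives. The lowest edgeR or DESeq2 adjusted p over all alternatives was 5.7e-06 for Tap1, 2.91e-05 for Psmb8 and 0.000355 for Psmb9. The B cell marker list summed to 6.62 to 22.7 CPM in KO M0 with AP-3-84 and 2.16 to 5.23 CPM with vehicle, with 3 of 4 genes at 0 in both groups. The neutrophil list of 5 genes summed to 267 to 420.1 against 518 to 641 CPM, with Ly6g at 0 in the vehicle group. The macrophage list summed to 38791, 17926 and 29060.2 CPM with AP-3-84. The part of these shifts in the result was not tested.

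The response differed from that of WT M0 for the same 3 genes, beside 10% of all genes with a higher response in KO. The difference was 1.55 for Tap1 (SE 0.36, edgeR adjusted p 0.00406), 1.21 for Psmb8 (adjusted p 0.00272) and 1.19 for Psmb9 (adjusted p 0.00486). In WT M0 the 3 genes had log2 fold changes of -0.49, -0.28 and -0.33. Without KO M0 AP-3-84 replicates 1 and 2, which left 1 library in that group, the differences were 0.88, 0.92 and 1.18. The same vehicle libraries serve the KO polarization and genotype comparisons above.

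Around the members, KO M0 cells treated with AP-3-84 had 3 of 16 interferon signalling genes higher and 4 lower, beside 12.1% and 8.57% of all genes. Socs1 rose by 2.77 on the log2 scale, while Ifngr1, the ligand-binding chain of the IFN-γ receptor, fell by 0.84 and Ifnar2, a chain of the type I interferon receptor, by 0.76. Psme2, a subunit of the proteasome activator PA28, stood at 163, 165 and 153 CPM with vehicle and 465, 434 and 215 CPM with AP-3-84 (1.21 ± 0.18 SE on the log2 scale, edgeR adjusted p 1.54e-05), and Psme1 rose by 0.42. The other heavy chains H2-T24 and H2-T22 rose by 2.47 and 1.20, and Mr1 fell by 1.10. The medians were 0.37 over the members, 0.45 over the other heavy chains, -0.37 over the interferon list and -0.03 over all genes.

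**Figure D3:**
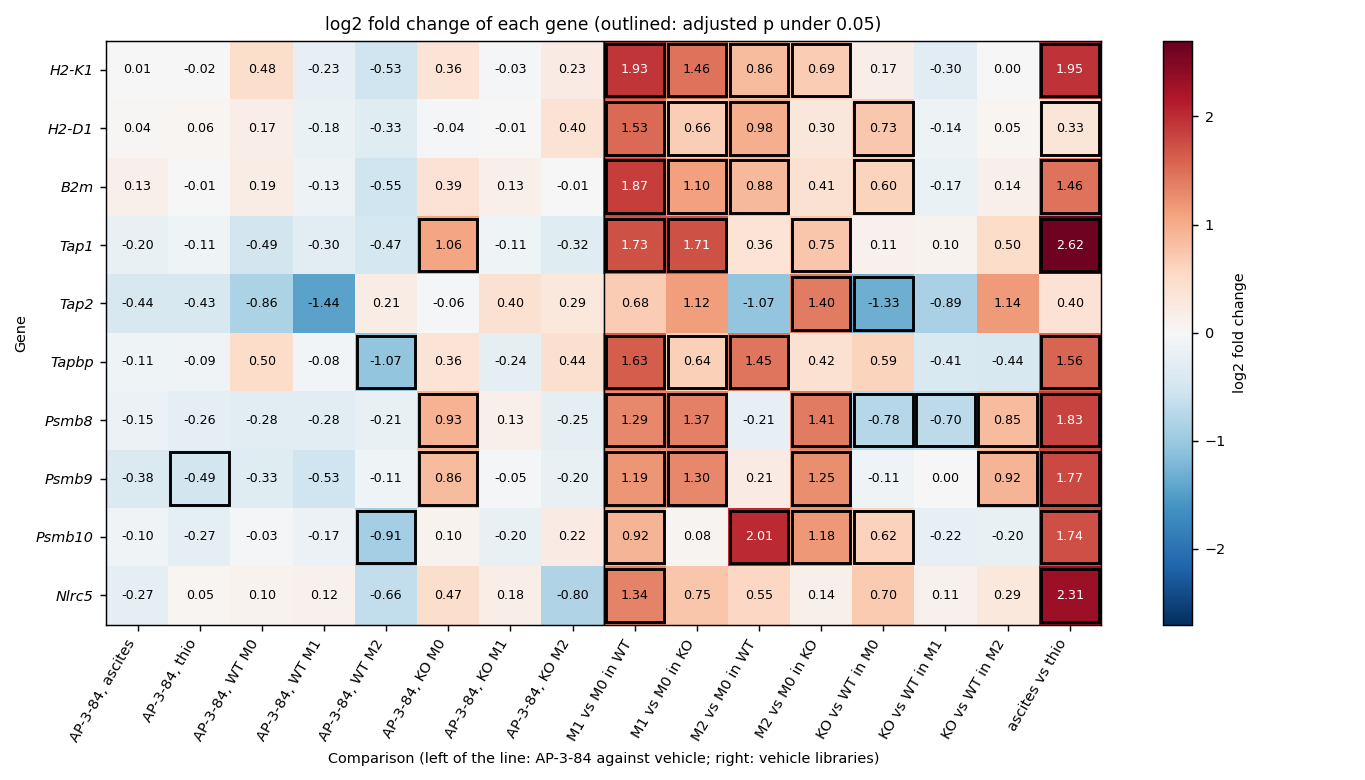
log2 fold change of the 10 genes (rows) in the 8 AP-3-84 comparisons and the 8 comparisons between vehicle groups (columns); colour and number give the fold change, and outlined cells have an edgeR adjusted p under 0.05. Outlined cells are few on the AP-3-84 side and most frequent for M1 against M0 in WT and ascites against thio, with 9 of 10 in each.

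The pathway lists in the polarization comparisons can be set beside the members. In M1 against M0, 7 of 11 other heavy chains rose in WT and 8 in KO, beside 8.01% and 22.8% of all genes. The largest rises were those of H2-Q7 in WT (5.27) and H2-Q6 in KO (5.93). Of 16 interferon signalling genes, 6 rose in WT, beside 8.01% of all genes, led by Socs1 (2.09). In KO 4 rose and 6 fell, beside 22.8% of all genes higher and 21.8% lower, with Socs1 at 3.80, Ifngr1 at -2.12 and Irf2 at -1.52. In M2 against M0, 4 of the 16 rose and 0 fell in WT, beside 1497 higher and 1264 lower of all 11779 genes. In KO 2 rose and 7 fell, beside 20.1% of all genes higher and 18% lower, with a list median of -0.38. Ifngr1 and Irf8, an interferon-regulated transcription factor, fell by 1.57 and 1.41 in KO. Socs1 rose by 3.66 in WT and 6.18 in KO. Irf1, an interferon-induced activator of class I genes, rose by 2.20 in WT, and Jak2 by 1.62 in KO. The trimming peptidase Erap1 rose by 0.99 and 1.13, and the tapasin-related Tapbpl by 1.10 and 0.81. The members' medians were 1.43 and 1.11 in M1 and 0.71 and 0.72 in M2 for WT and KO, and those of all genes lay between -0.01 and 0.02.

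The balance of immunoproteasome and constitutive subunits was measured as the log2 ratio of counts within a library, which does not depend on scaling between libraries. In the peritoneal cells all 3 ratios were lower with AP-3-84 in both populations, and the groups did not overlap in any of these 6 comparisons. The Psmb9 to Psmb6 ratio was -0.19, -0.15 and -0.38 with vehicle and -0.88, -0.60 and -0.73 with AP-3-84 in ascites, a difference of -0.50. In thio it was -2.15, -2.32 and -2.28 and -2.62, -2.90 and -3.08, a difference of -0.62, which is 1.53 times lower. The Psmb8 to Psmb5 ratio differed by -0.33 in ascites and -0.61 in thio, and the Psmb10 to Psmb7 ratio by -0.22 and -0.44. The exact two-sided permutation p was 0.1 in each of the 6, the smallest that 3 against 3 allows, and 0.24 after adjustment over 48 tests. Psmb5 itself, the constitutive partner of Psmb8, rose in thio from 216, 214 and 215 to 257, 275 and 287 CPM (0.34 ± 0.055 SE on the log2 scale, edgeR adjusted p 0.00119).

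In KO M0 the ratios did not separate although Psmb8 and Psmb9 rose with AP-3-84. The Psmb8 to Psmb5 ratio was -1.09 ± 0.50 with vehicle and -0.88 ± 0.26 with AP-3-84 (SD, n = 3), and these ranges overlapped. Psmb5 rose there too, from 127, 147 and 163 to 271, 273 and 187 CPM (0.74 ± 0.16 SE on the log2 scale, edgeR adjusted p 0.00105). In WT M1 against WT M0 all 3 ratios were higher without overlap, by 1.13 for Psmb8, 1.35 for Psmb9 and 0.59 for Psmb10. In KO M1 against KO M0 all 3 overlapped, and Psmb5, Psmb6 and Psmb7 rose by 1.09, 0.80 and 0.83. In WT M2 the ratios went apart: Psmb10 to Psmb7 was 4.44 times higher than in M0, Psmb9 to Psmb6 was 1.68 times lower, and Psmb8 to Psmb5 overlapped. The lower ratio does not show a fall of Psmb9, which stood at 60.3 ± 9.35 CPM in WT M2 and 52.0 ± 9.64 CPM in WT M0 vehicle (SD). With AP-3-84 in WT M1 the Psmb9 to Psmb6 ratio was lower without overlap (-0.99, -1.05 and -1.42 with vehicle and -2.02, -1.98 and -2.37 with AP-3-84, a difference of -0.97). In M2 vehicle cells the Psmb8 to Psmb5 and Psmb9 to Psmb6 ratios were higher in KO than in WT, by 1.00 and 1.06. In M1 vehicle cells the same ratios were lower in KO, by -0.57 without overlap and by -0.55 with overlap, and in M0 vehicle cells the Psmb10 to Psmb7 ratio was higher in KO by 1.54 without overlap. Psmb10 itself differed less there, at 105.8 CPM in KO and 68.6 CPM in WT, so Psmb7 enters this ratio too. All of these differences have an exact permutation p of 0.1 or more and none passes adjustment.

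**Figure D4:**
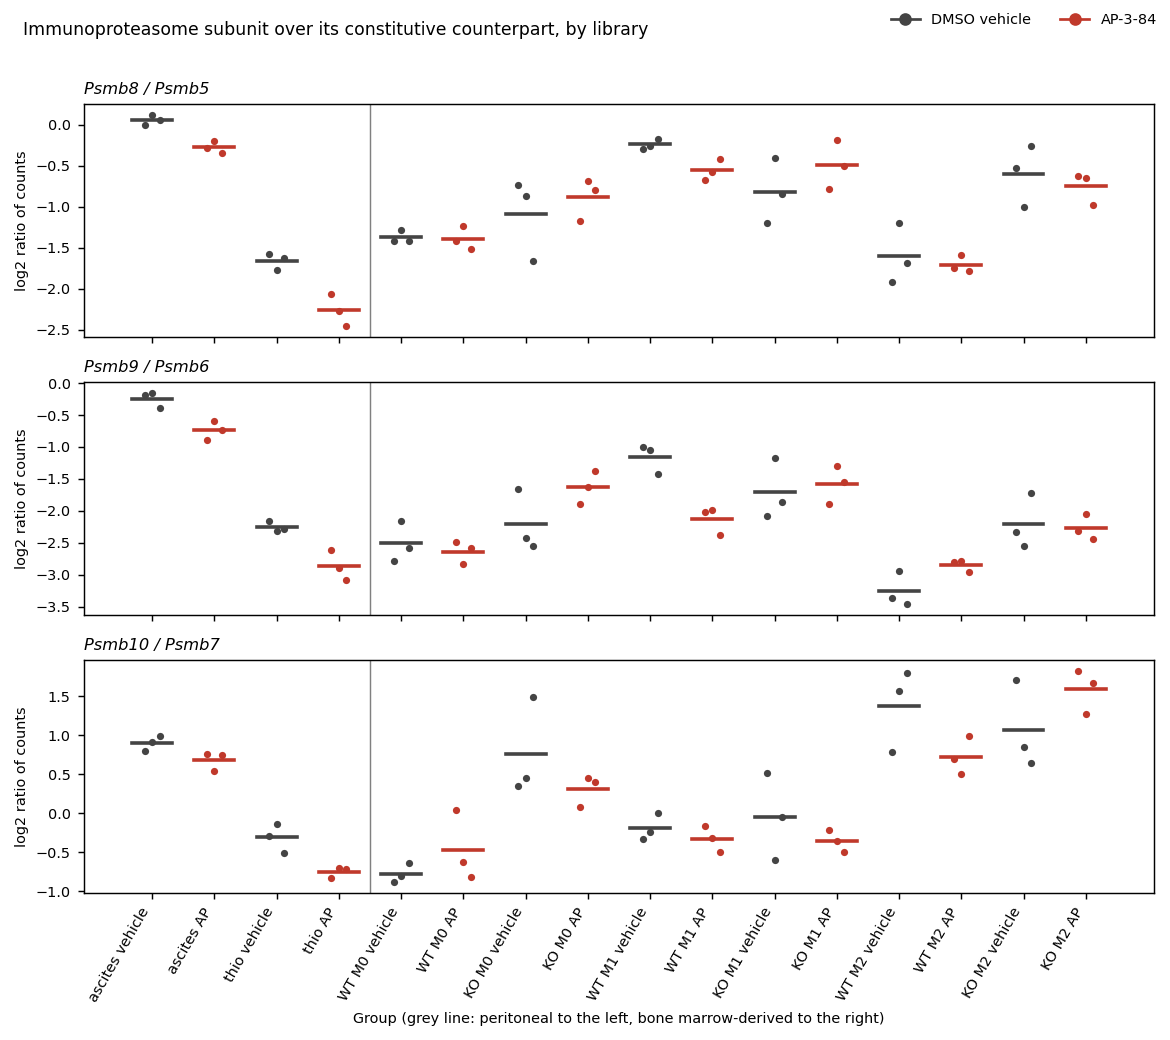
log2 ratio of counts of each immunoproteasome subunit to its constitutive counterpart in 48 libraries; points are libraries, bars are group means of 3, grey is DMSO vehicle and red is AP-3-84, and the vertical line parts peritoneal from bone marrow-derived groups. Within each peritoneal population the red points lie below the grey points in all 3 panels.

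Ordered by mean over the 12 bone marrow-derived groups, 6 genes were highest in WT M1 vehicle: H2-K1, H2-D1, B2m, Tap2, Tapbp and Psmb8. Tap1 and Psmb9 were highest in KO M1 vehicle and Nlrc5 in KO M1 with AP-3-84. Each of the 10 was lowest in an M0 group except Nlrc5, which was lowest in WT M2 with AP-3-84. Neighbours in these orders mostly overlapped, at 9 to 11 of 11 neighbouring pairs for each gene. Psmb8 in WT M1 vehicle (284 to 299 CPM) stood clear of the next group, WT M1 with AP-3-84 (231 to 249 CPM). For Psmb10 the highest group was KO M2 with AP-3-84 (247 to 329 CPM), and the 3 highest groups were M2 groups that overlapped one another. Nlrc5, Tapbp and Tap2 had no pair of neighbours that stood apart. In the peritoneal cells Psmb8 and Psmb9 stood apart between all 4 groups, in the order ascites vehicle, ascites with AP-3-84, thio vehicle and thio with AP-3-84. How many of all genes stand apart in such orders was not counted.

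Across the 12 group means in log2 CPM, each gene was set against the mean profile of the other 9 by Pearson's r, as a description over groups that share libraries' depth and scaling. The r was 0.95 for B2m, 0.93 for H2-K1 and 0.92 for H2-D1, and lowest for Tap2 (0.48) and Psmb10 (0.25). Tap1 and B2m were the closest pair (0.95), and Psmb10 and Nlrc5 the most distant (-0.11). Outside the 10 genes, the 5 whose profile was most like the members' mean were Ccr7 (r = 0.97), Slamf6 (0.96), H2-T22 (0.92), Casp1 (0.91) and Syt7 (0.91). The gene most like Nlrc5 was Stat2 (0.96), the one most like H2-K1 was Slamf6 (0.97) and the one most like Psmb9 was Batf2 (0.93). Several of these were scarce, with a mean of 0.16 CPM for Ccr7 in WT M0 vehicle and 2.44 CPM in WT M1 vehicle.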

How the data were processed

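The authors deposited a table of whole-number counts per gene for 48 libraries of QuantSeq FWD 3′ tags (single 75-base reads from 100 ng RNA, per the labels' protocols). The submitters' processing notes name RSEM, Bowtie2 and DESeq2. The sources used here do not give the genome build, annotation or counting strand. Symbols came from the annotation for 51596 of 51789 gene IDs. Libraries were grouped by title, and 12 peritoneal and 36 bone marrow-derived libraries were fitted apart with edgeR 4.0.16 (R 4.3.3: TMM scaling, filterByExpr, robust quasi-likelihood test, Benjamini-Hochberg adjustment over all genes tested, called under 0.05). The 22 comparisons were 8 of AP-3-84, 8 between vehicle groups and 6 differences of responses. DESeq2 1.42.0, other scaling, no filter, a replicate block, only the groups compared and each left-out library were alternatives. Subunit ratios used counts plus 0.5 and an exact two-sided permutation test (scipy 1.17.1). The fitting script was tested on simulated data. Named were all 10 members, at most the 2 called genes with the largest rise and the 2 with the largest fall of each other list, and the genes most alike in profile. The values of 1 gene that this rule names are not reported here. The members and lists were chosen with earlier results of these data known.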

Additional observations from a re-analysis of the deposited data

Results flagged for a closer look

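In 14 cases the response of a gene was tested to differ between KO and WT bone marrow-derived cells (edgeR adjusted p under 0.05), and each is given as the KO response minus the WT response on the log2 scale. For AP-3-84 in M0 the difference was 1.55 for Tap1, 1.21 for Psmb8 and 1.19 for Psmb9, beside 10% of all genes with a higher response in KO. For AP-3-84 in M2 it was 1.51 for Tapbp and 1.13 for Psmb10, beside 1.08% of all genes higher. For M1 against M0 it was -0.87 for H2-D1, -0.999 for Tapbp and -0.84 for Psmb10, beside 9.51% of all genes lower. For M2 against M0 it was -0.68 for H2-D1, 2.47 for Tap2, -1.03 for Tapbp, 1.62 for Psmb8, 1.04 for Psmb9 and -0.83 for Psmb10. Beside these, 27.1% of all genes were called in either direction. H2-D1 for M1 against M0, and Psmb8, Psmb9 and Psmb10 for M2 against M0, stayed called under every alternative. The calls of Tapbp, of H2-D1 and Tap2 for M2 against M0, and of Psmb10 for M1 against M0 and for AP-3-84 in M2 were lost under at least 1. With 1 KO M0 AP-3-84 library left, the M0 differences were 0.88 for Tap1, 0.92 for Psmb8 and 1.18 for Psmb9. The M1 and M2 differences share their M0 vehicle libraries, and the AP-3-84 differences in M0 use the same vehicle libraries again.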

How the results depend on the processing

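Of 64 calls, 41 were kept under every alternative run and 23 were lost under at least 1, and no called direction reversed. Some of the 23 were lost only in the fit that left 1 KO M0 AP-3-84 library. These were Psmb8 with AP-3-84 in KO M0, and Tap1, Psmb8 and Psmb9 for its difference from WT M0. Among the 10 genes, the number called with AP-3-84 in ascites went from 0 to 1 with median-ratio size factors, no filter or DESeq2, and lay between 0 and 1 with a replicate left out. In thio it went from 1 to 3 with no filter and 2 with DESeq2 (0 to 2 with a replicate left out). In WT M1 it went from 0 to 1 with no filter or with only the groups compared. With a replicate left out it was 1 to 2 in WT M2 and 0 to 1 in KO M2. Without KO M0 AP-3-84 replicates 1 and 2, 1 library was left in that group, so the number called is not given. For KO against WT in M0 it was 3 to 6 with a replicate left out. In M1 it was 0 with total counts, 2 with no filter and 0 to 1 with a replicate left out. In M2 it was 0 with only the groups compared and 0 to 2 with a replicate left out. For differences of the AP-3-84 response it was 1 in M1 with no filter, and in M2 0 with only the groups compared and 1 to 4 with a replicate left out. For the difference of M1 against M0 it was 1 with total counts, and for that of M2 against M0 3 to 6 with a replicate left out. Most same-numbered libraries did not deviate together (r over 0.1 in 4 of 24 pairs, best match to the own number in 5). The 4 pairs were KO M1 replicates 1 and 2 (r = 0.45 and 0.52) and WT M2 replicates 1 and 3 (0.26 and 0.27), so pairing there is not excluded. With the replicate block the count was 6 instead of 7 for M1 against M0 in KO and 4 instead of 3 for the difference of M1 against M0. For KO against WT in M0 the block kept the count at 5 but called Tapbp (adjusted p 0.0482) in place of Tap2 (0.0687). All ratio results moved by less than the spread between replicates. Depth limits Nlrc5 and Tap2 most, with 12 and 15 counts in their lowest library.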
